A study of Mus musculus with 51 samples.

Results

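CT36 and CT32 are neighbouring time points of a 4 h series of fetal mouse kidneys, and the libraries of these time points were compared here. They were chosen by the time in their labels, 4 libraries labelled CT36 and 4 labelled CT32, which is 8 of the 51 libraries of the series. All 51 libraries come from whole kidneys of C57BL/6 fetuses labelled wild type, with no treatment and no transgene, and hold poly-A RNA. CT32 is labelled embryonic day 19 plus 8 h and CT36 embryonic day 19 plus 12 h. The pair used for comparison, CT8 and CT12, carries the same clock hours on embryonic day 18 and also has 4 libraries each. The labels call the libraries biological replicates and name no dam or litter, so p-values measure the spread between these samples, and the 4 fetuses of a time point may share a litter. Values are normalised and rounded by the authors, so sequencing depth is unknown. Differences are given as log2(value + 1) at CT36 minus CT32, a scale that understates changes of low genes, with the standard error (SE) of a limma fit. A gene is said to have risen or fallen where the Benjamini-Hochberg adjusted p over 14426 tested genes was under 0.05.

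Shortly before birth the mouse kidney still forms nephrons at its rim, from progenitor cells that meet the branching ureteric bud, while older nephrons inside it already carry transporters of the mature tubule. Fatty acids are a main fuel of the mature proximal tubule, and the nuclear receptor PPAR-alpha switches on many genes of their oxidation when fatty acids are plentiful. Low oxygen stabilises hypoxia-inducible factors, which raise glycolytic enzymes and erythropoietin. Interferons act through receptors at the cell surface to raise a set of antiviral genes.

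Kidney marker genes were present in every library. Nphs1 (podocyte slit diaphragm) ranged from 2429 to 2814 normalised units at CT32 and from 2435 to 3026 at CT36, and Six2 (nephron progenitors) from 2322 to 3150 and from 2049 to 2616. Library totals did not overlap between the groups, at 35401651 to 35711911 for CT32 and 34233327 to 34925644 for CT36. The break was not particular to these groups. No library of CT28 or CT32 was below 35225077, and none from CT36 to CT48 was above 34925644. On the first principal component of the 24 libraries of CT28 to CT48 (31% of variance) CT28 and CT32 lay from -44.2 to -24.1, CT36 from -1.92 to 10.3 and CT40 from 5.81 to 18.2. CT44 and CT48 lay from 16.0 to 31.7. The part of handling or library preparation in this split between CT32 and CT36 was not tested. CT36 replicate 4 stood apart on the third component, at -35.2 against -5.67 to 2.25 for the other CT36 libraries. CT36 replicates 2 and 3 were unusually alike. The standard deviation (SD) of their log2 difference was 0.0810 over 7771 genes, the lowest of 36 pairs within time points (next 0.108, median 0.165), and 0.412% of values were identical. Replicate 3 also carries another ID prefix than the other libraries of both groups.

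**Figure D1:**
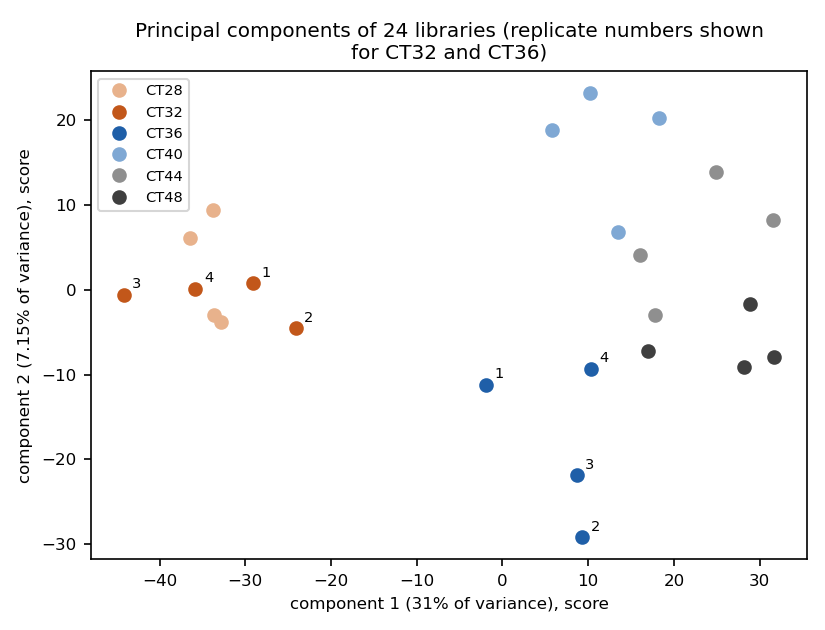
Scores of the 24 libraries of CT28 to CT48 on the first 2 principal components of log2 values (axes in component scores, 1 point per library, coloured by time point). The 4 CT36 libraries lie from -1.92 to 10.3 on component 1 and the 4 CT32 libraries at or below -24.1.

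Of 14426 genes tested, 5023 (34.8%) differed between CT36 and CT32, 2263 (15.7%) higher and 2760 (19.1%) lower at CT36. Most differences were small. The median size among the genes called was 0.35 on the log2 scale, and 285 of them differed by at least 1, 143 higher and 142 lower. In 3747 of the called genes the 4 + 4 libraries did not overlap; over all genes tested 12.7% were higher and 16.9% lower with no overlap. The step from CT28 to CT32 changed 17 genes (0.118%) and the step from CT36 to CT40 changed 2559 (17.7%), in the same fit. Later steps changed 195 (1.35%, CT40 to CT44) and 31 (0.215%, CT44 to CT48). Leaving out CT36 replicate 4 gave 2168 higher and 2510 lower. Leaving out CT36 replicates 3 and 4 together gave 1317 and 1812, and averaging replicates 2 and 3 into 1 library gave 1717 and 2286.

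Fatty acid genes rose together. Of 23 tested genes of fatty acid oxidation and its control, 18 rose and 0 fell, against 15.7% higher among all genes. The median was 0.48 (all genes -0.01). In 16 the libraries were higher with no overlap, against 12.7% of all genes. Angptl4, a secreted inhibitor of lipoprotein lipase and a PPAR target (not in that list), read 245, 169, 92 and 138 at CT32 and 650, 1164, 1207 and 961 at CT36. Every CT36 library was above every CT32 library, a rise of 2.67 ± 0.27 (SE, n = 4 and 4, adjusted p = 6.02e-07). The rule that named the 10 largest rises and 10 largest falls asked for no overlap. Cyp4a10, a fatty acid omega-hydroxylase, averaged 202 at CT32, where no library passed 352, and 1126 ± 332 (SD) at CT36 (908, 1299, 1503 and 794), a rise of 2.54 ± 0.39 (adjusted p = 6.86e-05). Its neighbour Cyp4a14 read 8, 13, 12 and 10 against 74 to 147 (mean 110.5; 3.23 ± 0.49, adjusted p = 1.75e-05); reads of these close copies may not be separable. Pdk4, the kinase that shuts pyruvate out of mitochondria, read 258, 238, 167 and 187 against 476, 1069, 1068 and 1245 (2.11 ± 0.27, adjusted p = 7.97e-06). Again no library of one group reached the other. The low-level thioesterase Acot12 had the largest rise of the list, from 3, 11, 0 and 3 to 23, 32, 46 and 42 (3.26 ± 0.58, adjusted p = 9.15e-05). Of the genes that carry fatty acids into mitochondria, Cpt1a rose by 1.21 and Cpt2 by 0.77, and the peroxisomal enzyme Ehhadh rose by 1.32. Ppara itself rose by 0.68. The 5 members that did not pass were Fabp3 (0.06), Acadm (0.07), Hadha (0.16), Acaa1b (0.16) and Cyp4b1 (0.29). Acnat2, a peroxisomal acyltransferase, read 43 to 138 at CT32 against 438, 391, 404 and 1009 (2.49 ± 0.41, adjusted p = 0.000136), with replicate 4 the highest. Summed over the 23 genes the level was 64852 to 73674 at CT32 and 87877 to 100664 at CT36.

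The fat synthesis list moved less. Of 23 tested genes of cholesterol and fatty acid synthesis 6 fell and 1 rose, with a median of -0.12, and 16 did not pass. The share of falls was not far from the 19.1% among all genes, of which 15.7% rose. Scd2, a stearoyl-CoA desaturase, read 57296, 73119, 69708 and 56786 at CT32 and 29633, 30199, 29204 and 37156 at CT36 (-1.02 ± 0.17, adjusted p = 0.000156). Scd1 fell by 0.58, the sterol demethylase Cyp51 fell by 0.53 and the regulator Srebf1 fell by 0.44.

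**Figure D2:**
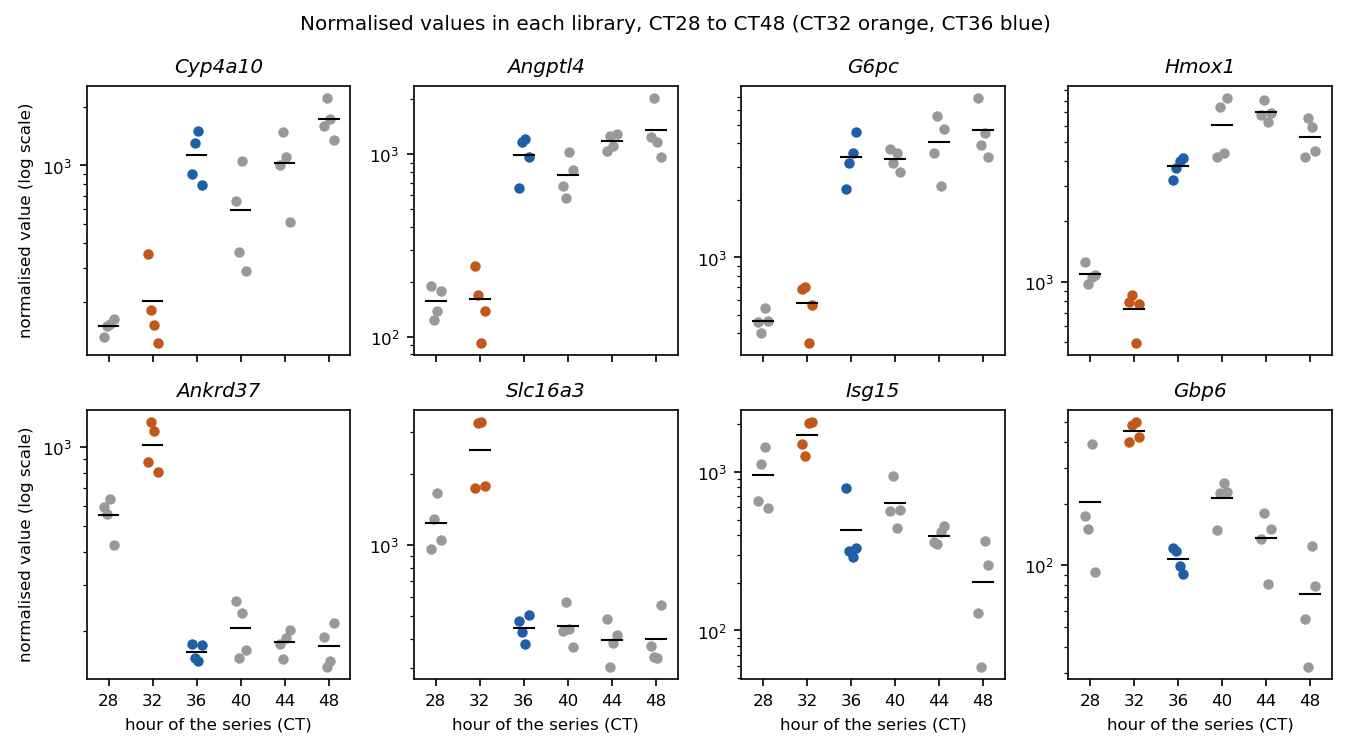
Normalised values (log axis) of 8 genes in each library from CT28 to CT48, with time in hours on the x axis, 1 point per library and a bar at the mean of each time point. In the upper 4 genes the CT36 libraries (blue) are above all CT32 libraries (orange), and in the lower 4 they are below. The rule that named these genes asked for no overlap.

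Several proximal tubule genes also rose. The list held 30 tested genes, of which 15 rose and 2 fell (median 0.31), against 15.7% higher and 19.1% lower among all genes. Its summed level overlapped between the groups, at 203509 to 253684 for CT32 and 238725 to 266963 for CT36. The sum was 166442 to 203700 at CT28 and 180182 to 231214 at CT40. Without CT36 replicates 3 and 4 the list had 9 rises, and without replicates 1 and 4 it had 8. G6pc, the last enzyme of glucose release, read 685, 703, 354 and 561 at CT32 and 2295, 3149, 3549 and 4563 at CT36, a rise of 2.56 ± 0.27 (adjusted p = 2.09e-06). Slc6a19, the neutral amino acid transporter of the brush border, read 349, 295, 199 and 211 against 618, 867, 946 and 733 (1.60 ± 0.18, adjusted p = 7.57e-07). Pck1, the gluconeogenic carboxykinase, read 5804, 7293, 4717 and 4654 against 7996, 11406, 11935 and 15209 (1.04 ± 0.25, adjusted p = 0.00366), and Agt, the angiotensin precursor, rose by 1.15. The groups did not overlap in any of these genes, which for G6pc was a condition of its naming. The regulator Hnf4a rose by 0.50. The members that fell were the glucose transporter Slc5a2 (-0.61) and the phosphate transporter Slc34a1 (-0.37). Slc34a1 did not pass without CT36 replicates 1 or 4 or CT32 replicate 2 (adjusted p = 0.0501, 0.101 and 0.0874). The receptor genes Lrp2 (0.09) and Cubn (-0.05) did not pass. Ugt3a1, a glycosyltransferase, read 34, 30, 14 and 13 against at least 98 in each CT36 library (2.39 ± 0.35, adjusted p = 8.83e-06).

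Of 20 tested antioxidant and haem-handling genes 11 rose and 1 (Prdx1, -0.18) fell, with a median of 0.18. Among all genes 15.7% rose and 19.1% fell. Without CT32 replicate 3 there were 7 rises and 0 falls. Hmox1, which breaks down haem, read 791, 856, 494 and 775 at CT32 and 3219, 3702, 3995 and 4127 at CT36. The rise was 2.39 ± 0.21 (adjusted p = 3.18e-07), and its mean went on to 6060 at CT40 from 1094 at CT28. Gsta1, a glutathione transferase, read 39, 44, 46 and 41 against 226, 232, 272 and 212, 2 narrow groups far apart (2.44 ± 0.22, adjusted p = 1.24e-08). Gpx3, the plasma glutathione peroxidase made in the kidney, rose by 1.07 from 29894 to 48612 at CT32 to 73923 to 87033 at CT36. The NRF2 targets Srxn1 and Nqo1 rose by 0.57 and 0.45. Gclc (0.53) was lost without CT36 replicate 4 or CT32 replicates 3 or 4 (0.0722, 0.0668 and 0.0631), and Prdx1 without CT36 replicate 2 or CT32 replicates 1, 3 or 4 (0.0506 to 0.114). The metallothioneins Mt1 (-0.21) and Mt2 (-0.43) did not pass.

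Genes of the response to low oxygen and of glycolysis fell. Of 23 tested genes 18 fell and 1 rose, against 19.1% lower among all genes, with a median of -0.65. In 17 the libraries were lower with no overlap, against 16.9% of all genes. Windows of 300 bases around the start site (250 before, 50 after, RefSeq, GRCm38.p6) are printed for 3 genes of this response that fell, with the core of the hypoxia response element, ACGTG on either strand, in capitals. Adjacent or overlapping matches are capitalised together, and CACGTG, the E-box that other factors also bind, holds the core on both strands. Ankrd37 (minus strand) is read from chr8:45999801-46000100, Ldha (plus) from chr7:46845554-46845853 and Slc16a3 (plus) from chr11:120948817-120949116.
Ankrd37: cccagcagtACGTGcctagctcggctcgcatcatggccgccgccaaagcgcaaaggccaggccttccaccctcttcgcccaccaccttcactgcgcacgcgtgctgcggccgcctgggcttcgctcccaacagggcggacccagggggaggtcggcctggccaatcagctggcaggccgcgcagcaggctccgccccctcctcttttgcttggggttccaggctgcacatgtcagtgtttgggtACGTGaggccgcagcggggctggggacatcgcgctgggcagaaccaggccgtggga
Ldha: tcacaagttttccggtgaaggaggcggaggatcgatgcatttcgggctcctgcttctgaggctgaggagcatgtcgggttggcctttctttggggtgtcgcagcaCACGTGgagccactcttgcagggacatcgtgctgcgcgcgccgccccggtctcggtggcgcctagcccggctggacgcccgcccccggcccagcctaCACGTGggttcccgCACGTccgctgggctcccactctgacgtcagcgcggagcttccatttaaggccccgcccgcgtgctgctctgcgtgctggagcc
Slc16a3: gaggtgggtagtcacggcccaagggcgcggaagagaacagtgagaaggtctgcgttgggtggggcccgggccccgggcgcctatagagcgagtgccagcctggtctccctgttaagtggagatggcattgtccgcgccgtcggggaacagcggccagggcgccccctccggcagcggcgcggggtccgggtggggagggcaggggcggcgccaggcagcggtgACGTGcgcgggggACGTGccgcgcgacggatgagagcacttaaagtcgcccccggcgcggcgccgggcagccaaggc
The core was present in 15 of the 22 list members with such a window (68.2%) and in 27.9% of the 11129 tested genes with one. Its share was 27.3% among genes that rose and 28.6% among those that fell. The motif was chosen after the values had been seen, and a match is no evidence of binding.

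Ankrd37, a direct target of hypoxia-inducible factor, read 879, 1249, 1149 and 803 at CT32 and 178, 158, 154 and 177 at CT36, a fall of -2.58 ± 0.17 (adjusted p = 2.39e-11). The lowest CT32 library was above the highest CT36 library by a wide margin, though the rule that named this gene asked for no overlap. Slc16a3, the lactate exporter MCT4 (outside the list), read 1746, 3270, 3312 and 1766 against 474, 429, 378 and 503 (-2.44 ± 0.23, adjusted p = 2.51e-07). Ldha, lactate dehydrogenase, read 39576, 53484, 47328 and 37066 against 19933, 18036, 18378 and 20731 (-1.19 ± 0.11, adjusted p = 7.05e-08), and the kinase Pfkl read 9897, 14123, 12535 and 10608 against 5958, 5396, 5153 and 5694 (-1.07 ± 0.12, adjusted p = 1.96e-06). Epo, the hormone that drives red cell formation, read from 8 to 145 at CT32 (mean 87 ± 64.5, SD) and 2, 1, 3 and 2 at CT36 (-4.31 ± 0.93, adjusted p = 0.000679). Its level at CT32 was itself high and uneven, since the CT28 mean was 2.75. The list sum was 215821 to 271829 at CT28, 257910 to 353566 at CT32, 187579 to 202689 at CT36 and 194901 to 209229 at CT40, so CT36 was below CT28 and CT32. Ndrg1, also a target of the factor, was the member that rose (0.66), and it did not pass without CT36 replicate 4, CT32 replicate 3 or CT32 replicate 4 (adjusted p = 0.077, 0.0883 and 0.0837). Eno1 (-0.58), Car9 (-0.26), Adm (-0.23) and Pfkfb4 (0.22) did not pass.

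Interferon-stimulated genes had the lowest median of the 41 lists. Of 20 tested members 19 fell (median -1.18), 18 of them with no overlap, and the other, Lgals3bp, differed by 0.02. Among all genes 19.1% fell, and 16.9% were lower with no overlap. Without CT36 replicates 3 and 4 there were 12 falls. The promoters of Isg15 and Ifit1 are printed with the interferon-stimulated response element in capitals (GAAA, any 2 bases, then GAAA, on either strand), in the same windows. Isg15 (minus strand) is read from chr4:156200769-156201068 and Ifit1 (plus) from chr19:34640639-34640938; Ifit1 was chosen for its match, after its values were seen.
Isg15: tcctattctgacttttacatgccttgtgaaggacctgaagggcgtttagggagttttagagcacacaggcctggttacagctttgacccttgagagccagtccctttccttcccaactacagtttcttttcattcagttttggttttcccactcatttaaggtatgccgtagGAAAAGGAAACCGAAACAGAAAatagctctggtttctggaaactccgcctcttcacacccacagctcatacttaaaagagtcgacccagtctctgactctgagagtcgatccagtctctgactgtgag
Ifit1: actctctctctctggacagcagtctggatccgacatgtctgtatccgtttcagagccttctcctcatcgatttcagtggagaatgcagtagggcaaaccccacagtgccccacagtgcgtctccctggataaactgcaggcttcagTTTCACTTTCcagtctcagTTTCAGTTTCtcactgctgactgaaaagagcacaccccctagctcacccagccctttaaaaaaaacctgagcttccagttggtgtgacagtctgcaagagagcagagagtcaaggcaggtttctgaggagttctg
The first match begins 78 bases before the start site in Isg15, which has 3 overlapping matches, and Ifit1 has 2. In all, 8 of the 14 list members with a window held this element (57.1%), against 3.6% of tested genes, 4.87% of the genes that fell and 2.58% of those that rose. A corresponding search for the PPAR element used AGGTCA, any 1 base, then AGGTCA, on either strand. It was found in 0 of the 18 fatty acid oxidation genes with a window and in 3 (0.027%) of all tested genes with one. With an exact match this rare, 0 of 18 was to be foreseen, so the search cannot show whether the list lacks such sites.

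Isg15, a ubiquitin-like modifier, read 1501, 1255, 2034 and 2061 at CT32 and 787, 319, 289 and 329 at CT36 (-2.09 ± 0.45, adjusted p = 0.00162), with CT36 replicate 1 the highest of its group but below all CT32 libraries. Gbp6, a guanylate-binding protein, read 400, 483, 501 and 425 against 121, 118, 99 and 91 (-2.07 ± 0.35, adjusted p = 0.000104). The antiviral synthetase Oas2 read 329, 366, 607 and 249 against 129, 77, 79 and 121 (-1.88 ± 0.37, adjusted p = 0.000411), and Usp18, which removes Isg15 from proteins, fell by 1.71. Isg15, Gbp6 and Oas2 were named under the rule that asked for no overlap. Falls of the signalling factors were smaller, with Irf9 at -0.89 and Stat2 at -0.58. The list sum was 15675 to 26509 at CT28, 28894 to 34500 at CT32 and 14369 to 19702 at CT36, so CT32 was above both neighbours and CT28 and CT36 overlapped. Gbp, Oas and Ifit genes have close copies, and single members of those families are uncertain. The summed macrophage markers were 7518 to 8082 at CT32 and 8135 to 9255 at CT36. Of the 14 tested 2 rose and 1 fell, and the part of macrophages in the interferon list was not tested.

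**Figure D3:**
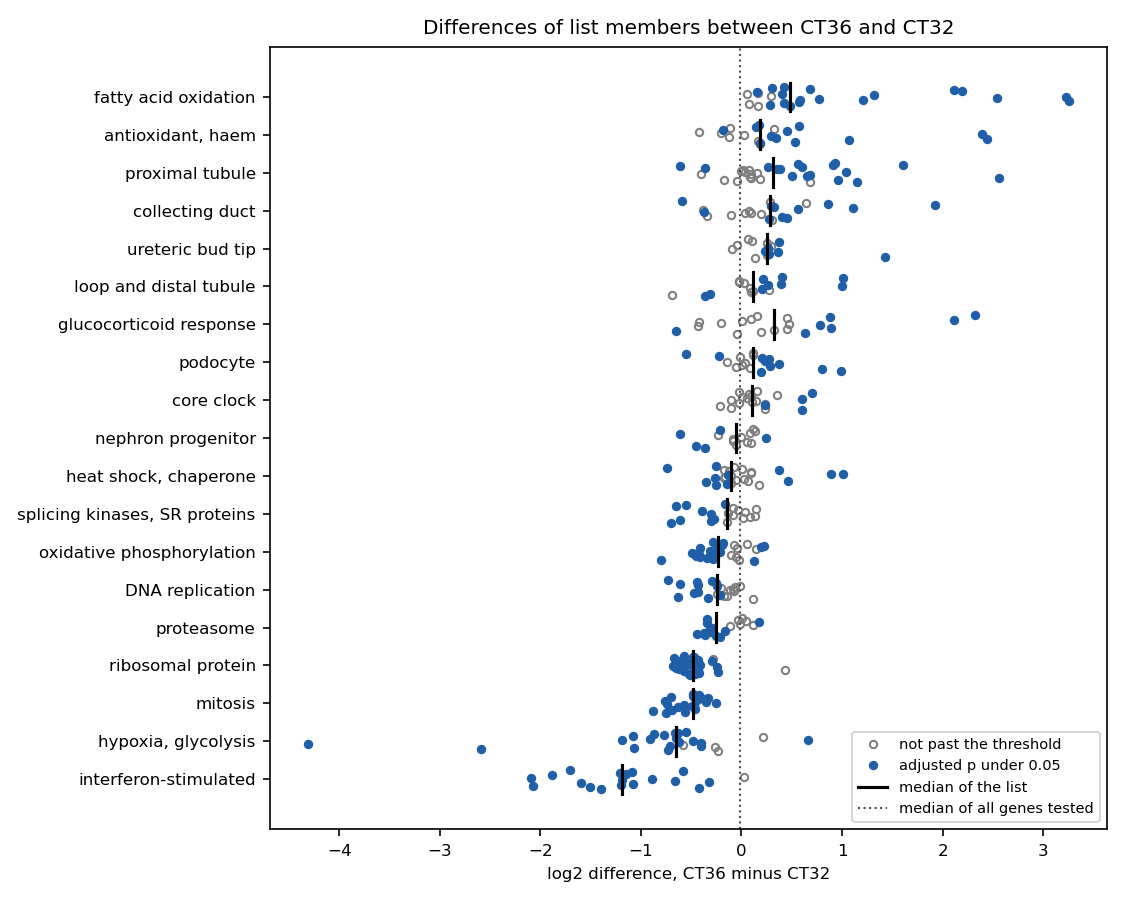
Log2 difference CT36 minus CT32 (x axis) of each tested member of 19 gene lists, with 1 point per gene, filled where adjusted p is under 0.05, and a bar at the list's median. Medians run from -1.18 (interferon-stimulated) to 0.48 (fatty acid oxidation), and the dotted line marks the median of all genes, -0.01.

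All 22 tested mitosis genes fell, by -0.25 (Cenpe) to -0.88 (Birc5), with a median of -0.49 and no overlap in 20. Among all genes 19.1% fell, and 16.9% were lower with no overlap. Cenpe alone was lost without a single library (CT32 replicate 3, adjusted p = 0.0682). Birc5, survivin, read 2254, 2203, 3220 and 2843 at CT32 and 1707, 1229, 1362 and 1380 at CT36 (-0.88 ± 0.13, adjusted p = 2.89e-05). Aurka, a spindle kinase, read 1478, 1306, 1655 and 1742 against 925, 868, 853 and 1001 (-0.75 ± 0.11, adjusted p = 1.12e-05). Depdc1a fell by 0.76 and Cdkn3 fell by 0.74; in Cdkn3 the groups touched, with the lowest CT32 library at 300 and the highest CT36 library at 319. The range of the list sum was 79977 to 94039 at CT32 and 60227 to 64707 at CT36. DNA replication genes fell in part. Of 22 tested, 12 fell and 0 rose (median -0.24), led by thymidylate synthase Tyms (-0.73), cyclin Ccne2 (-0.63), Rfc4 (-0.61) and Gins1 (-0.47), while the 6 helicase subunits Mcm2 to Mcm7 did not pass (-0.20 to -0.02). Without CT36 replicates 3 and 4 there were 7 falls. In bulk tissue, fewer cells of a kind and less RNA per cell cannot be told apart.

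Ribosomal protein genes fell by similar amounts. Of 30 tested, 28 fell, all with no overlap, against 19.1% lower among all genes (16.9% lower with no overlap). Rps27 (-0.28) and Rpl30 (0.44) did not pass, and the median was -0.48. Rps3 read 51873, 45225, 52000 and 49287 at CT32 and 35184, 26868, 28380 and 35306 at CT36 (-0.67 ± 0.08, adjusted p = 2.06e-06), with CT36 replicates 2 and 3 the lowest. Rpl5 fell by 0.68, Rpl35 by 0.65 and Rps18 by 0.62. The summed level was 1005435 to 1125191 at CT32 and 678102 to 832042 at CT36. Mitochondrial ribosome genes fell in 12 of 22 (median -0.26, led by Mrpl54, -0.45, Mrpl28, -0.44, Mrpl34, -0.39, and Mrps22, -0.39), and respiratory chain genes in 16 of 26 with 3 higher (median -0.23). The small ATP synthase subunit Atp5e fell most among the latter (-0.80), followed by Ndufa4 (-0.49), Ndufa2 (-0.46) and Cox7a2 (-0.45), and Sdha and Ndufv1 rose (0.23 and 0.19). The third riser, Atp5a1 (0.13), was lost without CT36 replicate 3 or CT32 replicates 3 or 4 (adjusted p = 0.093, 0.0917 and 0.0511). Proteasome genes fell in 12 of 19 with 1 higher (median -0.25, led by Psma5, -0.44, Psma7, -0.37, Psma3, -0.36, and Psmc6, -0.34).

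Transcript length moved with the difference over all genes. With genes split into 5 equal groups by exon length, in the shortest group (174 to 2448 bases) the median difference was -0.15, with 6.11% higher and 29.8% lower. In the longest group (7492 bases or more) it was 0.07, with 25.2% higher and 10.2% lower. Across 14326 genes, which are not independent, Pearson's r between log2 length and difference was 0.18. Of the ribosomal protein genes 20 of 30 lay in the shortest group, as did 11 of 22 of the mitochondrial ribosome, 17 of 26 of the respiratory chain and 6 of 19 of the proteasome. Between CT12 and CT8 the medians ran the same way but over a smaller range, from -0.04 in the shortest to 0.04 in the longest group. The part of length or RNA quality in the falls of these lists was not tested.

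**Figure D4:**
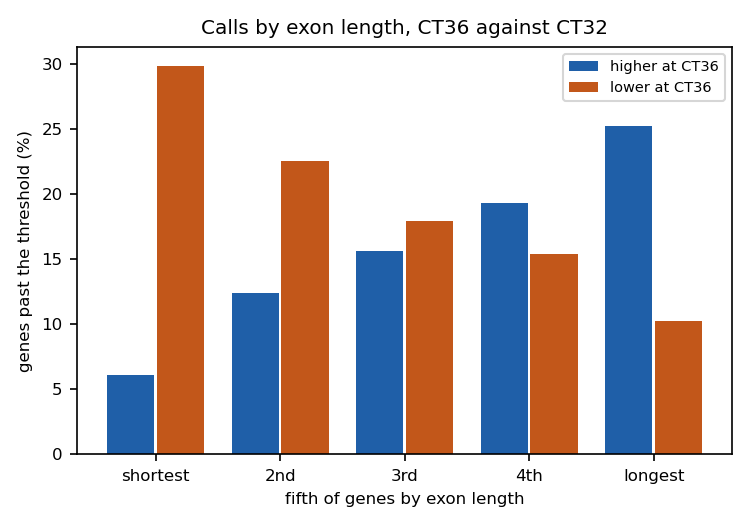
Percent of tested genes that were higher or lower at CT36 (y axis) in 5 equal groups of genes by exon length (x axis). The share higher goes from 6.11% to 25.2% and the share lower from 29.8% to 10.2% from the shortest to the longest genes.

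The chaperone and stress lists, with 4 to 7 falls each, were not far from the shares of all genes, 15.7% higher and 19.1% lower. Of 25 heat shock genes 4 rose and 7 fell (median -0.10). The inducible Hsp70 genes Hspa1a and Hspa1b, close copies, rose by 1.01 and 0.89, the small heat shock protein Cryab rose by 0.47, and the mitochondrial chaperonin Hspe1 fell by 0.74. Hspa1b read 570, 563, 537 and 505 at CT32 and 878, 1222, 1102 and 883 at CT36 (0.89 ± 0.15, adjusted p = 4.66e-05), with no overlap. Of 15 endoplasmic reticulum stress genes 4 fell and 1 rose (median -0.06), led by Sdf2l1 (-0.91) and Pdia6 (-0.39). The falls came to 2 without CT36 replicate 2, CT32 replicate 3 or CT32 replicate 4. Those of Manf (-0.35) and Pdia4 (-0.21) depended on single libraries. Manf did not pass without CT36 replicate 2, CT32 replicate 3 or CT32 replicate 4 (adjusted p = 0.0688, 0.0578 and 0.0624), and Pdia4 did not without any of CT36 replicates 1 to 4 or CT32 replicates 3 and 4 (0.0668 to 0.134). The integrated stress response list had 4 lower and 1 higher of 15 (median 0.01), namely Ddit4 (-0.65), Mthfd2 (-0.40), Ddit3 (-0.39) and Sesn2 (0.38) among them, and each of these was lost without at least 1 library. Mthfd2 was lost without CT36 replicate 1 or CT32 replicate 4 (0.0508 and 0.06), and Ddit3 without CT36 replicates 2 or 4 or CT32 replicates 3 or 4 (0.0723 to 0.111). Sesn2 was lost without CT36 replicates 2, 3 or 4 or CT32 replicates 1, 2 or 3 (0.0503 to 0.103), and Ddit4 without any library other than CT36 replicate 4 (0.0552 to 0.118). Splicing kinases and SR proteins fell in 9 of 19 with 0 higher (median -0.15), among them Clk1 (-0.70), Srsf7 (-0.65), Clk4 (-0.61) and Tra2a (-0.55). The nuclear RNA Snhg11 read 510, 496, 505 and 279 against 229, 239, 268 and 335, groups that overlap through CT32 replicate 4 (-0.71 ± 0.21, adjusted p = 0.0106).

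Immediate early and glucocorticoid-responsive genes were uneven among the CT36 libraries. Egr1 read 929, 662, 782 and 882 at CT32 and 1295, 1435, 1507 and 5036 at CT36 (1.26 ± 0.33, adjusted p = 0.00596), and Fkbp5, a co-chaperone induced by glucocorticoids, read 1749, 1596, 1432 and 1638 against 2538, 2469, 2602 and 4763 (0.89 ± 0.29, adjusted p = 0.0212). Replicate 4 was the highest of CT36 in both. Zbtb16, also glucocorticoid-induced, read 30, 30, 26 and 30 against 131, 93, 76 and 528 (2.32 ± 0.80, adjusted p = 0.0303), and the sulfotransferase Sult1a1 read 321, 248, 240 and 226 against 366, 364, 391 and 967 (0.88 ± 0.29, adjusted p = 0.0209). Without CT36 replicate 4, Fkbp5 (adjusted p = 0.0815), Zbtb16 (0.111) and Sult1a1 (0.0725) did not pass, although the other libraries also stood above CT32. They were lost as well without CT32 replicate 3 (0.0575, 0.0666 and 0.0537), and Sult1a1 and Zbtb16 without CT32 replicate 4 (0.0552 and 0.055) and Zbtb16 without CT32 replicate 1 (0.053). Of 19 glucocorticoid-responsive genes 6 rose and 1 fell (median 0.32), and the rises came to 2 without CT36 replicate 4 and 3 without CT32 replicate 3. Pdk4, given above, and Klf9 (0.78) are in this list too. Of 22 immediate early genes 4 rose and 0 fell (median 0.25), a share of rises near the 15.7% of all genes, and the counts were 2 and 1 without CT36 replicate 4, with 2 rises also without CT32 replicate 3. Klf4 rose by 0.88. Klf2 (0.51) was lost without CT36 replicate 4 or CT32 replicate 3 (0.0627 and 0.0503), and Egr2 (1.01) without any CT36 library or CT32 replicates 3 or 4 (0.0506 to 0.117). The receptor gene Nr3c1 differed by 0.01 and Fos by 0.78, neither past the threshold.

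The series title names the circadian clock, and of 19 tested core clock genes 4 rose and 0 fell (median 0.11), against 15.7% higher among all genes. Arntl (Bmal1), the activator of the loop, read 519, 486, 471 and 493 at CT32 and 673, 705, 764 and 856 at CT36, with no overlap (0.60 ± 0.12, adjusted p = 0.000441). Its partner Clock read 1857, 1575, 1462 and 1547 against 2016, 1912, 1853 and 1798 (0.24 ± 0.09, adjusted p = 0.0322), and Npas2, which can replace Clock, read 120 to 185 against 178, 257, 194 and 283 (0.60 ± 0.19, adjusted p = 0.0131). Rora, a nuclear receptor that activates Arntl, read 227, 198, 83 and 142 against 168, 325, 285 and 243, groups that overlap (0.70 ± 0.22, adjusted p = 0.0154). Arntl alone of these kept its call without each library in turn. Clock lost it without CT36 replicates 1, 2 or 3 or CT32 replicates 2, 3 or 4 (adjusted p = 0.0507 to 0.12). Npas2 lost it without CT36 replicates 2 or 4 or CT32 replicate 1 (0.0501, 0.058 and 0.0536), and Rora without CT36 replicates 2 or 3 or CT32 replicate 3 (0.0715, 0.0516 and 0.119). Of the repressors, Per1 read 1581, 1633, 1205 and 1487 against 1366, 1242, 1240 and 2874, and Per2 read 602, 526, 462 and 433 against 629, 472, 479 and 1180. CT36 replicate 4 was far above the rest in both, and neither passed (0.10 and 0.35); without it Per1 differed by -0.19. Per3 (0.07), Cry2 (-0.02), Nr1d1 (0.05), Nr1d2 (0.00), Arntl2 (0.23), Rorb (-0.02), Bhlhe40 (-0.11) and Bhlhe41 (-0.21) did not pass. Cry1 (0.24, adjusted p = 0.0668) passed without CT36 replicate 1 (0.0109). The kinase Csnk1e (0.14, 0.0678) passed without CT36 replicate 3, CT32 replicate 2 or CT32 replicate 4 (0.0489, 0.0298 and 0.0437), and Csnk1d (0.11, 0.0766) did not pass without any of the 8. Among 11 clock output genes Hlf rose by 0.56 and Usp2 by 0.51, and Usp2 did not pass without CT36 replicates 3 or 4 or CT32 replicates 3 or 4 (0.0529, 0.131, 0.111 and 0.0723).

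Of the 5 tested RNA-binding genes listed as cold-inducible, 2 rose, against 15.7% of all genes. Cirbp read 1333, 1253, 1156 and 1091 at CT32 and 2315, 2808, 2778 and 2201 at CT36 (1.06 ± 0.09, adjusted p = 1.24e-08), and its mean went on to 5161 at CT40. Rbm3 rose by 0.28, from 9240 to 11118 at CT32 to 11832 to 12611 at CT36.

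The nephron progenitor and early nephron lists were not far from the shares of all genes (15.7% higher, 19.1% lower). Of 15 nephron progenitor genes 4 fell and 1 rose (median -0.05), with Meox2 at -0.61, Crym at -0.46, Cited1 at -0.36, Six2 at -0.22 and the integrin gene Itga8 at 0.25. Itga8 did not pass without CT36 replicate 2 or 3 (adjusted p = 0.0565 and 0.0582), nor Six2 without CT36 replicates 1 or 3 or CT32 replicates 2 or 3 (0.0696 to 0.144). Early nephron genes had 4 higher and 4 lower of 18 (median 0.04). The Notch target Hes5 averaged 160 ± 62.8 (SD) at CT32 and read 55, 57, 39 and 21 at CT36 (-1.88 ± 0.33, adjusted p = 7.68e-05), and Hey1, also a Notch target, fell by 0.47. The Wnt inhibitor Dkk1 fell by 0.34 and the transcription factor gene Pax2 rose by 0.30. Genes listed for the ureteric bud and its tip rose in 6 of 14 with 0 lower (median 0.26). Calbindin, Calb1, read 6397, 6244, 3557 and 5790 against 11834, 14466, 15410 and 16494 (1.43 ± 0.16, adjusted p = 2.39e-06). The tip genes Spry1, Etv5 and Etv4, targets of RET signalling, rose by 0.37, 0.37 and 0.27.

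In the later segments more genes rose than fell, while among all genes 15.7% rose and 19.1% fell. Collecting duct genes rose in 9 of 21 and fell in 2 (median 0.28). Slc14a2, the urea transporter of the inner medulla, read 240, 260, 139 and 212 at CT32 and 668, 800, 804 and 903 at CT36 (1.92 ± 0.20, adjusted p = 3.43e-07). Scnn1a, the alpha subunit of the epithelial sodium channel, read 1304, 1417, 882 and 1119 against 2086, 2533, 2448 and 3057 (1.11 ± 0.19, adjusted p = 0.000192), while the water channel Aqp2 (0.31) did not pass. Pendrin, Slc26a4, rose by 0.86. The urothelial gene Upk3a (-0.59) was lost without CT36 replicate 2 or CT32 replicate 2 (adjusted p = 0.0509 and 0.0643). Loop and distal tubule genes rose in 7 of 17 and fell in 2 (median 0.11), and the rises came to 4 and 3 without CT32 replicates 3 and 4. The magnesium channel Trpm6 rose by 1.01, the prostaglandin receptor Ptger3 by 1.00 and uromodulin, Umod, by 0.41. Slc12a3 (0.39) did not pass without CT36 replicate 2, CT32 replicate 3 or CT32 replicate 4 (0.0864, 0.0741 and 0.0646). Podocyte genes rose in 8 of 18 and fell in 2 (median 0.11), and 5 rose without CT36 replicates 3 and 4. The summed levels overlapped for podocyte genes (84915 to 93193 at CT32, 88237 to 97808 at CT36). They did not for collecting duct genes (34516 to 37934 and 40028 to 45441) or loop and distal tubule genes (63240 to 72464 and 73584 to 80210). Col4a3 and Col4a4, type IV collagen chains of the mature glomerular basement membrane, read 1491 to 2078 and 2072 to 2551 at CT32 against 2950 to 3804 and 3393 to 4563 at CT36. They rose by 0.99 ± 0.12 and 0.81 ± 0.10 (adjusted p = 3.02e-06 and 1.45e-06), Magi2 rose by 0.38, and Nphs1 (0.03) did not pass. Vegfa, a podocyte product that is also a hypoxia target, fell by 0.55.

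Among the other kidney cells, against 15.7% higher and 19.1% lower over all genes, stromal genes fell in 5 of 16 and rose in 2 (median -0.12), with Lum at -1.19, Crabp1 at -0.93, Crabp2 at -0.63 and Pdgfrb at 0.35. Matrix genes rose in 4 of 19 and fell in 1 (median 0.13), with the rises near the share of all genes, and there were 7 rises with quantile scaling or with only the 8 libraries fitted and 8 with all 51. The fall, of Sparc (-0.14), was lost without any single CT36 library and without CT32 replicate 1 or 4. Col12a1, Fbn1 and Fn1 rose by 0.52, 0.41 and 0.39. Col5a2 (0.24) was lost without CT36 replicates 2 or 3 or CT32 replicates 1, 2 or 3 (adjusted p = 0.0503 to 0.0993). Of 12 smooth muscle genes 1 fell (Synpo2, -0.43) and 0 rose. Endothelial genes rose in 6 of 17 and fell in 2 (median 0.09), and their sums overlapped (52572 to 57337 at CT32, 54693 to 62026 at CT36). The scavenger receptor Stab2 read 42, 15, 26 and 28 at CT32 and 75, 47, 75 and 218 at CT36 (1.70 ± 0.36, adjusted p = 0.000629), Tek rose by 0.44 and Plvap by 0.40. Ehd3 (0.40) was lost without CT36 replicate 4 or CT32 replicates 2 or 3 (0.103, 0.0633 and 0.0763). Macrophage genes were called no more often than all genes. Of 14 tested 2 rose, Cd163 by 0.98 and Csf1r by 0.58, and 1 fell, Tyrobp (-0.33), which was lost without CT36 replicates 2 or 3 or CT32 replicates 1, 3 or 4 (0.0587 to 0.0991).

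Further large changes lay outside the lists. Vip, vasoactive intestinal peptide, read 229, 221, 425 and 218 at CT32 and 90, 23, 28 and 45 at CT36 (-2.67 ± 0.37, adjusted p = 6.43e-06). Gpr183, an oxysterol receptor of immune cells, read 236, 231, 232 and 215 against 62, 69, 88 and 30 (-1.96 ± 0.31, adjusted p = 2.11e-05), and Kcne3, a potassium channel subunit, read 168, 263, 191 and 197 against 97, 31, 44 and 47 (-1.99 ± 0.35, adjusted p = 8.6e-05). No library of CT36 reached CT32 in any of these genes, which the rule that named them required.

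Markers of tissues that a dissected kidney could carry are given by their lists, to be read against 15.7% higher and 19.1% lower among all genes. Liver genes rose in 2 of 12 and fell in 1, with a summed level of 8006 to 10477 at CT32 and 8486 to 9846 at CT36. Albumin, Alb, read 151, 924, 121 and 407 against 16, 85, 89 and 82 (-2.33 ± 0.87, adjusted p = 0.0454) and was lost without any CT36 library or CT32 replicates 2 or 4 (0.0544 to 0.144), and Fgb and Serpina1a rose by 0.70 and 0.55. Erythroid genes fell in 1 of 9 (Tfrc, -0.43), and their sum was 15215 to 18114 against 13291 to 14334, lower at CT36 with no overlap (12636 to 14736 at CT28). In the lymphoid and granulocyte list 3 of 9 rose, and each was lost without at least 1 library: Ltf (1.45) without CT36 replicates 2, 3 or 4 or any CT32 library except replicate 4 (0.0633 to 0.148), Cd79a (1.15) without CT36 replicates 1, 3 or 4 or CT32 replicates 2 or 4 (0.0511 to 0.11), and Kit (0.25) without CT36 replicates 2 or 3 (0.0507 and 0.0515). No gene of 7 adrenal (smallest p for Chgb, 1.20, adjusted p = 0.25) or 12 skeletal muscle genes passed in the limma fit. The muscle gene Ryr1 (-0.52, adjusted p = 0.0708) passed without CT36 replicate 4 (0.0391), and the muscle sum was 723 to 831 at CT32 and 515 to 1581 at CT36. Of 4 adipose genes Lpl rose (0.37) and Fabp4 fell (-0.54), the latter lost without CT36 replicates 2 or 3 or CT32 replicate 3 (0.0975, 0.0695 and 0.0677). Of 6 gonad and mesonephros genes Ddx4 (1.03) and Dhh (0.74) rose, and Dhh was lost without CT36 replicates 2 or 3 (0.0831 and 0.106). Of 11 nerve genes Ngfr fell (-0.50). The deposited values hold 11 of 14 listed lymphoid and granulocyte genes, 10 of 12 erythroid and 12 of 13 adrenal genes. For adipose and for gonad and mesonephros genes they hold 8 of 10 each, and for the other tissues all. None of the genes held was at 0 in all 8 libraries. The part of these tissues in the other results was not tested.

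The same clock hours on the day before gave a far smaller step. Between CT8 and CT12 840 genes (5.82%) differed. The difference between the CT32 to CT36 step and the CT8 to CT12 step passed in 4386 genes (30.4%), 1973 higher (13.7%) and 2413 lower (16.7%). Spread differed between the parts of the series that hold these pairs. The median SD of a gene within a time point was 0.0748 in the part up to CT24 and 0.136 from CT28 on, and each part was given its own variance weight in this test. Leaving out CT36 replicates 3 and 4 gave 1190 higher and 1578 lower.

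The leading gene groups differed from the earlier day as groups of single tests. Among all genes the step difference passed as higher in 13.7% and as lower in 16.7%. Of the fatty acid oxidation list 18 of 23 had a positive step difference past the threshold and 0 a negative. The median change of this list from CT8 to CT12 was -0.11. Hypoxia and glycolysis genes passed as lower in 18 and higher in 1 of 23, with a median change of 0.24 on the earlier day. For interferon-stimulated genes it was 18 lower of 20 with an earlier median of 0.35, for mitosis 22 of 22 (0.07) and for ribosomal proteins 28 of 30 (-0.05). Cyp4a14 had the largest positive step difference under the naming rule (4.08 ± 0.58, adjusted p = 1.09e-06), followed by G6pc (3.40), Angptl4 (3.26), Cyp4a10 (3.03) and Hmox1 (2.97). In these 5 genes the earlier step ran from -0.86 (Cyp4a14) to -0.49 (Cyp4a10). Ankrd37 had the largest negative value (-3.38, adjusted p = 2.34e-10), followed by Slc16a3 (-3.12), Vip (-3.04), Gbp6 (-2.75) and Isg15 (-2.71), with earlier steps of 0.37 (Vip) to 0.80 (Ankrd37). These 10 were chosen for a large difference between the steps, which favours steps of opposite sign. For Cirbp the step difference was 1.64 ± 0.24, with -0.58 on the earlier day. Arntl passed as well (0.64, adjusted p = 0.000416), with -0.03 on the earlier day.

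**Figure D5:**
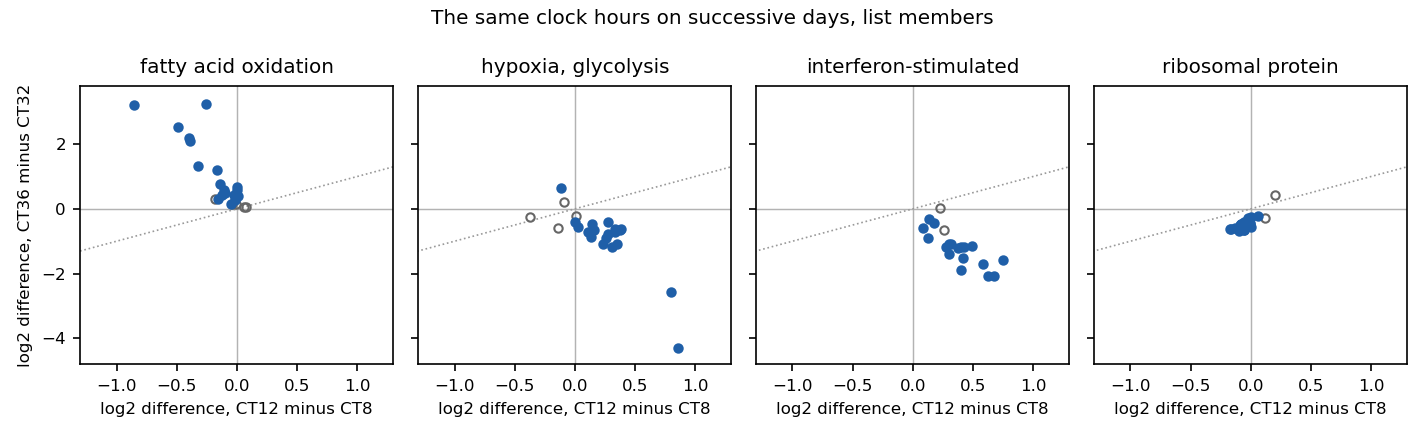
Log2 difference CT36 minus CT32 (y axis) against CT12 minus CT8 (x axis) for the members of 4 lists, 1 point per gene, filled where the difference between the steps has adjusted p under 0.05, with a dotted line where both steps are equal. All fatty acid oxidation genes but Fabp3 lie above that line and most hypoxia and interferon genes below it, at -1.18 (median, interferon) on the y axis against 0.35 on the x axis.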

How the data were processed

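Poly-A RNA of fetal kidneys was sequenced on Illumina HiSeq instruments after TruSeq library preparation, per the labels' protocols. The submitters' processing notes name featureCounts (version 1.5.0-p3), STAR (version 2.5.2b), bcl2fastq and the build mm10, without stating the part each played. How values were normalised, which annotation was used and whether strand was counted was not given in the sources used here. Overlapping and near-identical genes are therefore uncertain. The table deposited by the authors holds whole numbers of an unstated normalised unit, treated as a score; 0 sample columns were left out. The authors' table of rhythm tests was not used.

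CT36 was compared with CT32 on log2(value + 1) with limma (version 3.58.1, R 4.3.3). Genes entered if they averaged 10 or more across the 51 libraries, which left 14426 of 16099. The 24 libraries of CT28 to CT48 entered the fit with 1 mean per time point, a mean-variance trend and robust moderation. The step difference against CT12 minus CT8 used all 51 libraries and 1 variance weight for each part. Tests were two-sided, and calls needed an adjusted p (Benjamini-Hochberg) under 0.05.

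The comparison, its 41 gene lists and tests were chosen with earlier results of these data known. Named genes are the 10 largest rises and 10 largest falls past the threshold with no overlap and at least 2 per 1e6 of the library total (without predicted models, pseudogenes and sex-linked genes), the tested core clock genes, up to 4 members per list with the largest change past the threshold (otherwise the smallest p), and the 5 largest step differences each way. Some genes that this rule names are not reported here. Other list members, the promoters and the motifs were picked after their values were seen. Gene lengths come from GENCODE M21 (14326 genes matched) and promoters from RefSeq (GRCm38.p6, 11129 genes matched). On simulated data with 100 genes changed by 0.5 and 100 by 1 among 14426, 68% and 77% were recovered for CT36 against CT32 (3.33% of calls false) and 63% and 77% for the step difference (4.11% false). In the real data far more genes passed (34.8% and 30.4%), so these rates need not hold for them. Alternatives changed the libraries, pseudocount, filter, scaling, moderation and replicate block.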

Additional observations from a re-analysis of the deposited data

Results flagged for a closer look

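Within the groups of 4, 21 of 308 tested had a library far from the other 3, and chance flags about 1 in 20 groups. CT36 replicate 4 stood high for Acnat2 (1009, others 391 to 438), Per1 (2874, others 1240 to 1366), Egr1 (5036, others 1295 to 1507), Egr2 (63, others 40 to 41), Fkbp5 (4763, others 2469 to 2602), Sult1a1 (967, others 364 to 391) and Scd2 (37156, others 29204 to 30199). CT36 replicate 1 stood high for Isg15 (787, others 289 to 329) and Usp18 (355, others at most 159). It stood low for Alb (16, others 82 to 89), Cry1 (982, others 1259 to 1304), Pdk4 (476, others 1068 to 1245), Col12a1 (9140, others 11143 to 11570) and Ltf (34, others 87 to 92). CT32 replicate 3 was low for Zbtb16 (26) and Calb1 (3557) and high for Vip (425) and Crabp2 (566). CT32 replicate 2 was low for Psmc6 (5244) and high for Fn1 (28867), and CT32 replicate 4 was low for Snhg11 (279).

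The 10 largest step differences between successive days, tested in limma as the difference of the 2 steps, also call for a closer look. They were positive for Cyp4a14 (4.08), G6pc (3.40), Angptl4 (3.26), Cyp4a10 (3.03) and Hmox1 (2.97), and negative for Ankrd37 (-3.38), Slc16a3 (-3.12), Vip (-3.04), Gbp6 (-2.75) and Isg15 (-2.71).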

How the results depend on the processing

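Counts of genes for CT36 against CT32 stayed within 1.5 times of 2263 higher and 2760 lower in all alternatives except the removal of CT36 replicates 3 and 4 together, which gave 1317 and 1812, as it gave 1190 and 1578 for the step difference (1973 and 2413); the cause was not tested. Without CT36 replicates 1 and 4, which also leaves 2 libraries, the counts were 2271 and 2535. The 2 left there were replicates 2 and 3, the most alike pair (SD of the log2 difference 0.0810). The counts of these 2 removals therefore cannot be compared by the number of libraries alone. Without 1 replicate at a time the counts ran from 1718 to 2379 higher and from 2198 to 2778 lower, and for the step difference from 1516 to 2085 and from 1911 to 2547. With the replicate block they were 2358 and 2846, and 2046 and 2488. Same-numbered libraries did not deviate together (correlations -0.02, 0.03, 0.03 and -0.03). This gave no sign of a pairing by number, but such correlations cannot show that there was none. Averaging CT36 replicates 2 and 3 (chosen after seeing the data) gave 1717 and 2286. Quantile scaling gave 2537 higher and 2428 lower, moving the share of higher calls from 45.1% to 51.1% and the median of all genes from -0.01 to 0.01. Of 140 named genes past the threshold 38 lost the call under at least 1 of 21 alternatives, and 0 changed sign; all 10 named step differences stayed past it under 27. Sign changed for clock genes that had not passed. Cry2 was 0.041 with quantile scaling. Without 1 replicate at a time Cry2 ran from -0.072 to 0.014, Nr1d2 from -0.064 to 0.071, Rorb from -0.41 to 0.32, Per1 from -0.19 to 0.21, Nr1d1 from -0.021 to 0.12, Bhlhe40 from -0.19 to 0.041 and Bhlhe41 from -0.41 to 0.026. Without CT36 replicates 3 and 4 Per1 was -0.17 and Rorb 0.13; without 1 and 4 (chosen after seeing the data) Per1 was -0.24, Per2 -0.077 and Per3 -0.011; with 2 and 3 averaged Nr1d2 was -0.0031 and Rorb 0.13. Depth is unknown, so counting error cannot be given.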

Other observations

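Means at CT40 lay at or beyond CT36 for Hmox1 (6060), Cirbp (5161) and Zbtb16 (448), while the mean of Cyp4a10 was 591 at CT40 and 1720 at CT48. In the first part of the series low genes (620 genes) had a median variance of 0.692 times the mean within time points, and 3.36 times in CT28 to CT48.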
